A study of Rattus norvegicus with 10 samples.

Results

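Zinc finger protein genes were examined in the supraoptic nucleus (SON) of the rat after knockdown of Creb3l1, a transcription factor of the CREB3 family that is made in magnocellular neurones. The 60 genes described here are those of the 1999 genes named in the part of the study's knockdown results used here whose symbol starts with Zfp, Znf, Zbtb, Zscan, Zkscan, Zc3h or Zdhhc, and none of them is in the KEGG gene lists of the study. They were chosen by the study's adjusted p-values, from DESeq2 on counts of the same SONs, so every difference between control and knockdown below is a description of genes chosen for differing, and no p-value is given for any of them. The counts cover 32402 genes, and all 60 were among the 16286 with enough counts to be fitted. By symbol, 10 are BTB genes (Zbtb), 5 are SCAN genes (Zscan and Zkscan), 39 carry a Zfp or Znf symbol, 1 is the CCCH gene Zc3h14 and 5 are Zdhhc genes.

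Poly(A) RNA was sequenced from 10 SONs of 5 male Sprague-Dawley rats, 3 weeks after virus injection. In each animal the left SON received an adeno-associated virus with a non-targeting control short hairpin RNA (shRNA), and the right SON the same kind of virus with a shRNA against Creb3l1. The rats carried no mutation and both SONs had been injected, so the groups differed in the hairpin, but brain side and treatment cannot be told apart. Each SON was a tissue punch that holds neurones, glia and vessels, and a lower value can come from fewer cells of a type or less RNA per cell, which cannot be told apart in such bulk samples.

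Most zinc finger proteins bind DNA through C2H2 fingers, loops held by a zinc ion between cysteine and histidine residues. Many of them are repressors: the BTB domain pairs proteins and recruits corepressors with histone deacetylases or the Cul3 ubiquitin ligase, the SCAN domain pairs proteins with each other, and a KRAB domain, which many Zfp proteins carry, recruits Trim28. The Zdhhc genes share only the zinc-binding cysteine-rich domain and encode palmitoyl acyltransferases, membrane enzymes that attach the fatty acid palmitate to cysteines of other proteins. Zc3h14 binds the poly(A) tail of RNA through CCCH fingers.

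The total count per SON lay between 29020948 and 34382889. Creb3l1 itself, the target of the hairpin, stood at 20.3, 26.5, 30.7, 33.5 and 23.4 CPM (counts scaled to library size with TMM factors) in control SONs 1 to 5 and at 7.10, 13.8, 8.69, 16.7 and 13.6 CPM in knockdown SONs 1 to 5. The knockdown SON was below the control SON in all 5 animals and the groups did not overlap, the mean going from 26.9 ± 5.35 to 12.0 ± 3.96 CPM (SD, n = 5), which is 44.6% of control. The log2 fold change was -1.16 (SE 0.24), with an adjusted p of 0.0173 in edgeR's quasi-likelihood test, an adjusted p of 0.0586 with the animal as a block, and p = 0.00794 in an exact two-sided permutation test over free splits of the SONs, the smallest that 5 against 5 allow. Exchanging the SONs only within animals, the exact permutation p was 0.0625, the smallest that 5 pairs allow. Of the 9 magnocellular markers examined, 4 could be named, Creb3l1, Sim1, Pdyn and Cartpt, because the study lists them as differing too, and all had lower means in the knockdown SONs. Sim1 and Pdyn were lower in all 5 animals and passed the threshold, whereas Cartpt was lower in 4, overlapped between the groups and did not pass. The summed level of the other 3 ranged from 400.4 to 701 CPM in control SONs and from 49.8 to 320.3 CPM in knockdown SONs, most of it from Pdyn, and the part of such cells in the values below was not tested. Markers of neurones in general, astrocytes, oligodendrocytes, microglia and endothelium could not be named in the counts and were not analysed here.

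Of the 60 zinc finger genes, 41 had a higher mean and 19 a lower mean in the knockdown SONs. This is 68.3% higher, while 41.3% of the 1990 listed genes that were fitted, and 56.2% of all 16286 genes fitted, were higher. The members thus lay mostly on the side opposite to Creb3l1, whereas the listed genes lay mostly on its side, a comparison that was not tested because the listed genes are a selected part of all genes. The log2 fold changes ran from -1.33 for Zfp663 to 1.02 for Zbtb16, with a median of 0.34 among the higher and -0.39 among the lower genes. The changes were mostly modest. The median size, in either direction, was 0.35 on the log2 scale, against 0.46 for the listed genes and 0.20 for all genes fitted. Only 15 of the 60 had a change of more than 0.5 on the log2 scale, 9 of them higher and 6 lower, and 2 had a change of more than 1.

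In the quasi-likelihood test of edgeR, fitted to all genes, 36 of the 60 genes had an adjusted p under 0.05, 24 higher and 12 lower. The same was true of 7.86% of all genes fitted, 3.36% higher and 4.49% lower, and since this contrast chose the 60 genes nothing is read from the difference. When counts were scaled by library size alone, without TMM factors, the split changed from 24 higher and 12 lower to 11 higher and 16 lower. The calls over all genes moved the same way, from 548 higher and 732 lower to 349 higher and 1131 lower, and no member changed sign. When edgeR was given the animal as a block, 0 of the 60 genes and 0.0553% of all genes passed. An unadjusted p under 0.05 was found there for 59 of the 60, which were chosen by p on these SONs, and for 18.4% of all genes. DESeq2 without a block called all 60, which the choice of genes fixed since the study's list was made with that tool, and 11.8% of all genes. The 5 control and 5 knockdown values did not overlap for 47 of the 60 genes, 30 higher and 17 lower, as for 9.65% of all genes, 4.16% higher and 5.5% lower. All 5 animals showed the same direction for 56 of them, as for 20.0% of all genes.

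**Figure D1:**
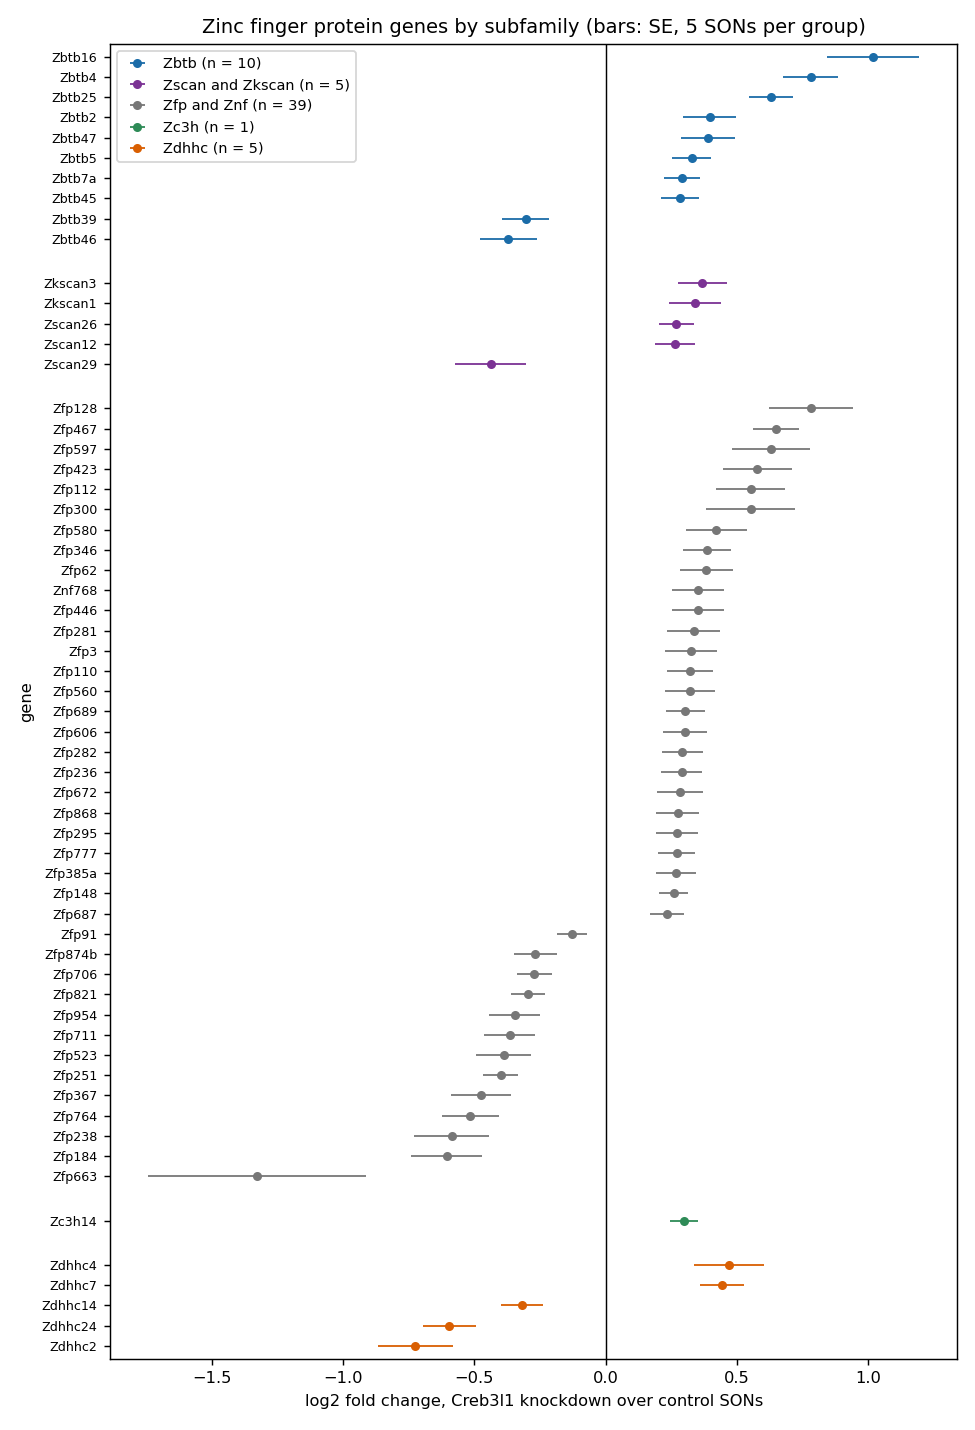
Log2 fold change of the 60 zinc finger protein genes, knockdown over control SONs, on the x axis, with 1 gene per line, ordered by value within the subfamily that gives the colour. Points are edgeR estimates from 5 SONs per group and bars are 1 SE. Most Zbtb genes sit to the right of 0, up to 1.02, the Zfp and Znf genes sit on both sides, and Zdhhc2 at -0.72 is the lowest Zdhhc gene.

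Promoter windows, 250 bases before to 50 after a transcription start, were read from RefSeq (build GRCr8) for 50 of the 60 genes, 36 higher and 14 lower. Zfp238 was matched through its newer symbol Zbtb18, the others by their own symbol, and the other 10 genes have no window here. Short motifs were searched on both strands, and a gene counted once if any of its windows held one. CACGTCA, which holds the ACGT core that factors of the CREB3 family bind, was found in 2 genes, Zfp236 and Zfp367, and in 2.02% of all 27457 genes with a window. CACGTG, which shares its first 5 letters, was found in Zfp523 and Zfp62, and in 7.08% of all genes. The GC box CCCGCCC was in 19 of the 50 genes and in 25.1% of all genes, and the windows of the 50 genes had a median GC content of 57.3%, against 51.7% for all windows. CGGAAGT, a motif of ETS factors, was in 8 of the 50 and in 6.97% of all genes, and ACTACAA was in 4 of the 50 and in 3.64% of all genes. Higher in the knockdown SONs were 15 of the 19 genes with CCCGCCC, 7 of the 8 with CGGAAGT and 3 of the 4 with ACTACAA. Of all 50 genes with a window, 36 were higher. The shares are not like for like. The 27457 genes include genes not fitted here, and the 50 genes had 74 windows, against 33469 windows for all 27457 genes. Whether the shares differ was not tested. ACTACAA begins a longer sequence that the paper tested with Creb3l1 in reporter assays. These matches describe letters in the windows and not sites in use.

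Windows with a CACGTG or CACGTCA match were chosen from a gene of each direction (Zfp62 and Zfp367). Zbtb7a, Zfp112 and Zkscan1 were chosen from the list of differing genes also near Creb3l1 binding in chromatin immunoprecipitation from water-deprived rats. Of the 60 genes, 7 were on that list of 210 genes, the others being Zfp91, Zfp148, Zdhhc7 and Zdhhc24. Of the 7, 5 were higher and 2 lower in the knockdown SONs. Of all 60 genes 41 were higher, so nothing is read from these counts. Each window is read 5′ to 3′ on the strand of its gene, in build GRCr8, with the motif matches in capitals.
Zfp62 (chr10:34023750-34024049, plus strand): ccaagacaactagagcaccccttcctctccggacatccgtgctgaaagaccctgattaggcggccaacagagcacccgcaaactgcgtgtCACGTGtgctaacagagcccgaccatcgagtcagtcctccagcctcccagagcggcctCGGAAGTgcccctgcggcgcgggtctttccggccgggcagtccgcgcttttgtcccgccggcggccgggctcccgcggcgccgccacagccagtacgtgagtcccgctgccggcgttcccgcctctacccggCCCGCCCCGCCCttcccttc
Zfp367 (chr17:970646-970945, plus strand): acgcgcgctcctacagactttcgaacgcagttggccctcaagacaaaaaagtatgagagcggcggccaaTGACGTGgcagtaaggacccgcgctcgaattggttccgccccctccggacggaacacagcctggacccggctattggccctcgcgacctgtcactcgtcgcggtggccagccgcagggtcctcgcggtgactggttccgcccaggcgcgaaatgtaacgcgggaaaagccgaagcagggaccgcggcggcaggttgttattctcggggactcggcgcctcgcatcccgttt
Zbtb7a (chr7:9227203-9227502, minus strand): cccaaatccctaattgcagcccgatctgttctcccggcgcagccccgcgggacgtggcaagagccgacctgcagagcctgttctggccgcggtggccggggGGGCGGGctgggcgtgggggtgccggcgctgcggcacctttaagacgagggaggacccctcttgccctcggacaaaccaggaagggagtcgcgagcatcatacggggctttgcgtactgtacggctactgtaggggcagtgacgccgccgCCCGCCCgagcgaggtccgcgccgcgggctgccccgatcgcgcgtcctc
Zfp112 (chr1:88804583-88804882, plus strand): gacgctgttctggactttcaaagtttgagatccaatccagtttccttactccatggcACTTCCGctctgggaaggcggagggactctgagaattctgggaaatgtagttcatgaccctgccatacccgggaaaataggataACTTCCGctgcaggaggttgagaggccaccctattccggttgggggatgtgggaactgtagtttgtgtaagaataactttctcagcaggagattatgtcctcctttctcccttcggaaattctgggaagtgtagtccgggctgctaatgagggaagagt
Zkscan1 (chr12:22080115-22080414, plus strand): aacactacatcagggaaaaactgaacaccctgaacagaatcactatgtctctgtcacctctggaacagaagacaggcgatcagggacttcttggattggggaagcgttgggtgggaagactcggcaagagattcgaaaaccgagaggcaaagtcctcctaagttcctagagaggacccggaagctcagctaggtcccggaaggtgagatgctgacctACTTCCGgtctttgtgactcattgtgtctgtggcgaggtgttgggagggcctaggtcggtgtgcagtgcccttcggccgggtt
The capitals are CACGTCA in Zfp367, the GC box in Zbtb7a, the ETS motif in Zfp112 and Zkscan1, and CACGTG with the GC box and the ETS motif in Zfp62, each on either strand. Of these genes, Zfp367 had the lower mean in the knockdown SONs, with a log2 fold change of -0.47 (SE 0.11), while Zfp62 was at 0.38 (SE 0.10), Zbtb7a at 0.29 (SE 0.07), Zfp112 at 0.55 (SE 0.13) and Zkscan1 at 0.34 (SE 0.10). None of the 7 genes on the list of bound genes had a CACGTG or CACGTCA match in its window. This says only that these exact letters were not in these 300 bases. The ACGT core alone was not searched, and it also occurs in the windows of Zbtb7a and Zdhhc24. Zbtb7a, Zfp148 and Zfp91 held the GC box, and Zfp112 and Zkscan1 the ETS motif. Both lie within longer sequences that the paper found by motif search in Creb3l1 peaks. In its reporter assays active Creb3l1 altered activity through those sequences. The longer sequences themselves were not searched, and use of the short motifs in these genes was not tested. Zdhhc7 and Zdhhc24 held none of the searched motifs.

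Among the BTB genes, 8 of 10 were higher, all 8 past the threshold, and the groups did not overlap for 6 of them. Of the 822 higher listed genes, chosen in the same way, 546 passed and 571 had groups without overlap. Over all genes fitted, 3.36% passed as higher and 4.16% were higher without overlap. The log2 fold changes of the 8 higher BTB genes ran from 0.28 to 1.02. Zbtb16 encodes PLZF, a repressor that works with nuclear receptor corepressors. It stood at 2.57, 3.19, 3.28, 3.52 and 4.27 CPM in control SONs 1 to 5 and at 7.26, 8.90, 6.06, 5.70 and 6.20 CPM in knockdown SONs 1 to 5. The lowest knockdown SON was above the highest control SON, the mean was 203% of control, and the log2 fold change was 1.02 (SE 0.17), the highest of the 60 genes. Zbtb16 was also a gene of low counts, with 76 to 287 per SON.

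Zbtb4, whose protein binds methylated DNA, gave 55.2, 75.8, 64.3, 80.3 and 74.2 CPM in control SONs 1 to 5. In knockdown SONs 1 to 5 it gave 132, 124, 117, 119 and 109 CPM. Every knockdown SON was above every control SON, and the log2 fold change was 0.78 (SE 0.11). Control SON 1 was the lowest of its group and knockdown SON 1 the highest, so that animal 1 had the widest difference. Zbtb25 had little spread among control SONs, with 10.2, 9.70, 9.97, 10.4 and 10.5 CPM, and 16.0, 15.3, 16.1, 17.3 and 13.9 CPM in knockdown SONs. The groups were well apart, at 10.2 ± 0.323 and 15.7 ± 1.23 CPM (SD, n = 5), with a log2 fold change of 0.63 (SE 0.08).

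The other 5 higher BTB genes had smaller differences. Zbtb2 had a log2 fold change of 0.40 (SE 0.10) and Zbtb47 of 0.39 (SE 0.10), and in both the ranges of the groups overlapped, from 11.3 to 13.9 and 13.8 to 18.0 CPM in Zbtb2 to 41.4 to 56.1 and 53.7 to 72.5 CPM in Zbtb47. Zbtb5 was at 0.33 (SE 0.07) and Zbtb45 at 0.28 (SE 0.07) on the log2 scale, with no overlap. Zbtb7a, a repressor known for silencing fetal globin genes, went from a mean of 64.3 ± 4.64 to 78.7 ± 4.24 CPM without overlap. The 2 lower BTB genes did not pass the threshold although their groups did not overlap. Zbtb39 had 26.5 to 32.1 CPM in control and 21.1 to 26.1 CPM in knockdown SONs, a log2 fold change of -0.31 (SE 0.09). Zbtb46, known as a marker of classical dendritic cells and also made in endothelium, had 9.40 to 11.5 and 7.25 to 9.07 CPM, a log2 fold change of -0.37 (SE 0.11).

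In RefSeq, 2 of the genes with a Zfp symbol are now named as BTB genes, Zfp238 as Zbtb18 and Zfp295 as Zbtb21. Counted with them, 9 of 12 BTB genes were higher and 3 lower. Zfp238, a repressor needed for the development of cortical neurones, is the lower one of the pair. It stood at 39.3, 58.2, 39.1, 41.3 and 40.8 CPM in control and 27.2, 26.8, 24.5, 30.1 and 37.0 CPM in knockdown SONs 1 to 5. Control SON 2 was far above the other control SONs, and the groups did not overlap, with a log2 fold change of -0.59 (SE 0.14). Zfp295 had a log2 fold change of 0.27 (SE 0.08), with 26.9 to 30.004 CPM in control and 32.0 to 41.0 CPM in knockdown SONs.

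Of the partners through which BTB proteins act, 3 of 10 could be named in the counts because the study lists them too, so they were also chosen for differing. Tbl1x and Tbl1xr1, subunits of the corepressor complex that contains histone deacetylase 3, had higher means in the knockdown SONs, at 0.27 (SE 0.08) and 0.38 (SE 0.08) on the log2 scale, and Tbl1xr1 passed the threshold. Cul3, the ubiquitin ligase scaffold that binds BTB adaptors, stood at 167, 177, 172, 174 and 169 CPM in control and 129, 134, 149, 130.4 and 121 CPM in knockdown SONs 1 to 5. The highest knockdown SON was below the lowest control SON, with a log2 fold change of -0.38 (SE 0.07). None of the 8 partners of KRAB and SCAN proteins that were looked for, among them Trim28 and Setdb1, could be named in the counts, and these were not analysed here.

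Of the 5 SCAN genes, 4 were higher and 1 lower, and 2 passed the threshold, as did 7.86% of all genes fitted. Zkscan3, which encodes a repressor of autophagy and lysosome genes, had 36.5, 33.2, 33.8, 31.2 and 33.3 CPM in control SONs 1 to 5 and 41.4, 41.8, 37.1, 52.0 and 44.6 CPM in knockdown SONs 1 to 5. The groups did not overlap, and the log2 fold change was 0.37 (SE 0.09). Zscan26 went from a mean of 61.8 ± 3.46 to 74.5 ± 4.66 CPM with a log2 fold change of 0.27 (SE 0.07), also without overlap and past the threshold. Zscan12 did not overlap either, at 15.5 to 16.8 CPM in control and 17.8 to 21.1 CPM in knockdown SONs, but it did not pass. Zkscan1 overlapped, with 26.9 to 35.3 CPM and 32.8 to 43.9 CPM, and was higher in 4 of 5 animals. Zscan29, the lower one, also overlapped, with 6.75 to 9.73 CPM in control and 5.00 to 7.10 CPM in knockdown SONs, although it was lower in every animal and its log2 fold change was -0.44 (SE 0.14).

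In the order of protein-coding genes along the chromosomes of the RefSeq table, 13 of the 58 genes that could be placed had another of the 60 within 10 places. They formed 4 runs. Zscan26, Zkscan3 and Zscan12 are neighbours on chromosome 17 and all 3 were higher. Zfp606, Zfp110, Zfp446 and Zbtb45 on chromosome 1 were all higher, with log2 fold changes from 0.28 to 0.35, as were Zfp282, Zfp777 and Zfp467 on chromosome 4. In the fourth run, also on chromosome 1, Zfp764 was lower at -0.52 between Znf768 at 0.35 and Zfp689 at 0.30. How the counting treated reads shared by similar zinc finger genes is not given in the sources used here, so values of such neighbours may not be independent. These genes were chosen for their position after their values were known.

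The Zfp and Znf genes split into 26 higher and 13 lower, of which 12 and 9 passed the threshold. The groups did not overlap for 31 of the 39. Over all genes fitted, 3.36% passed as higher and 4.49% as lower, and 9.65% had groups without overlap. Zfp128 had the highest fold change among the Zfp and Znf genes. In RefSeq this symbol is an older name of both Znf8 and Zscan22, so it was not matched and may be a SCAN gene. Zfp128 stood at 6.89, 6.21, 9.31, 5.65 and 6.98 CPM in control SONs 1 to 5. In knockdown SONs 1 to 5 it stood at 12.6, 10.2, 9.89, 13.8 and 13.8 CPM, with a log2 fold change of 0.78 (SE 0.16). The groups did not overlap, but animal 3 differed least, its control SON being the highest and its knockdown SON the lowest of their groups. Zfp467, known from the choice between bone and fat cells, had 20.5, 23.5, 22.1, 25.5 and 24.4 CPM in control SONs. In knockdown SONs it had 37.3, 41.7, 34.1, 35.6 and 33.3 CPM, all above the control values, with a log2 fold change of 0.65 (SE 0.09) and a smaller SE than Zfp128.

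Zfp597 ranged from 9.12 to 15.5 CPM in control to 17.3 to 24.2 CPM in knockdown SONs, a log2 fold change of 0.63 (SE 0.15). Zfp423, a partner of EBF factors in cerebellar and fat cell development, ranged from 33.6 to 49.2 CPM to 52.1 to 78.2 CPM, a log2 fold change of 0.58 (SE 0.13). Neither gene's groups overlapped, and both passed the threshold. Zfp112 had few reads, 3.78 to 5.34 CPM in control and 5.74 to 7.49 CPM in knockdown SONs, with a log2 fold change of 0.55 (SE 0.13) past the threshold. Zfp300 was nearly as high at 0.55 (SE 0.17), but its ranges of 2.64 to 3.998 and 3.55 to 5.68 CPM overlapped, it was higher in 4 of 5 animals, and it did not pass.

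The lowest fold change of all 60 genes was that of Zfp663, which was barely detected. It gave 0.642, 1.22, 0.833, 1.02 and 0.795 CPM in control and 0.316, 0.310, 0.699, 0.0721 and 0.387 CPM in knockdown SONs 1 to 5, which is 2 to 41 counts per SON. The mean was 39.5% of control and the log2 fold change -1.33 (SE 0.41), but the groups overlapped through knockdown SON 3, the error was the widest of the 60, and the gene did not pass the threshold. Zfp184 was better measured, with 7.03, 8.27, 6.67, 7.37 and 7.22 CPM in control and 3.88, 4.78, 5.16, 5.95 and 4.26 CPM in knockdown SONs. No knockdown SON reached the lowest control SON, with a log2 fold change of -0.61 (SE 0.14). Zfp764 went from a mean of 7.68 ± 0.342 to 5.37 ± 0.609 CPM (SD, n = 5), a log2 fold change of -0.52 (SE 0.11), and Zfp367 from 22.9 ± 2.95 to 16.5 ± 1.91 CPM. Zfp251 had the smallest SE of the 6 lowest genes, with 43.3 to 47.3 CPM in control and 31.4 to 37.2 CPM in knockdown SONs and a log2 fold change of -0.40 (SE 0.07). These 3 genes also had groups that did not overlap, and all passed.

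The highest CPM in control SONs among the Zfp and Znf genes belonged to Zfp706, Zfp91 and Zfp385a. CPM is not divided by transcript length, so it does not rank the genes by number of molecules. Zfp706, which encodes a small single-finger protein, stood at 173, 171, 169.6, 164 and 171 CPM in control SONs 1 to 5 and at 149, 146, 149, 133 and 127 CPM in knockdown SONs 1 to 5. It was lower in every animal without overlap, at 82.9% of control and -0.27 (SE 0.07) on the log2 scale. Zfp91, which encodes an atypical ubiquitin ligase, had the smallest difference of all 60 genes. Its ranges of 154 to 163 CPM and 141 to 153 CPM did not overlap, the log2 fold change was -0.13 (SE 0.06), and it did not pass edgeR's threshold. Zfp385a, which encodes a protein that binds RNA and p53, was the last zinc finger gene in the part of the study's list used here. It had 89.5, 111, 109, 109 and 107 CPM in control and 129, 131, 114, 128 and 131 CPM in knockdown SONs. The log2 fold change was 0.27 (SE 0.08), without overlap. The study's full list is longer than this part, so zinc finger genes further down that list may be missing here. The remaining 24 Zfp and Znf genes comprised 19 that were higher, by 0.23 to 0.42 on the log2 scale, and 5 that were lower, by -0.39 to -0.27, and 10 of the 24 passed. In order of fold change the higher ones were Zfp580, Zfp346, Zfp62, Znf768, Zfp446, Zfp281, Zfp3, Zfp110, Zfp560, Zfp689, Zfp606, Zfp282, Zfp236, Zfp672, Zfp868, Zfp295, Zfp777, Zfp148 and Zfp687, and the lower ones, from the lowest, were Zfp523, Zfp711, Zfp954, Zfp821 and Zfp874b. The groups did not overlap for 13 of the 19 and for all 5.

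**Figure D2:**
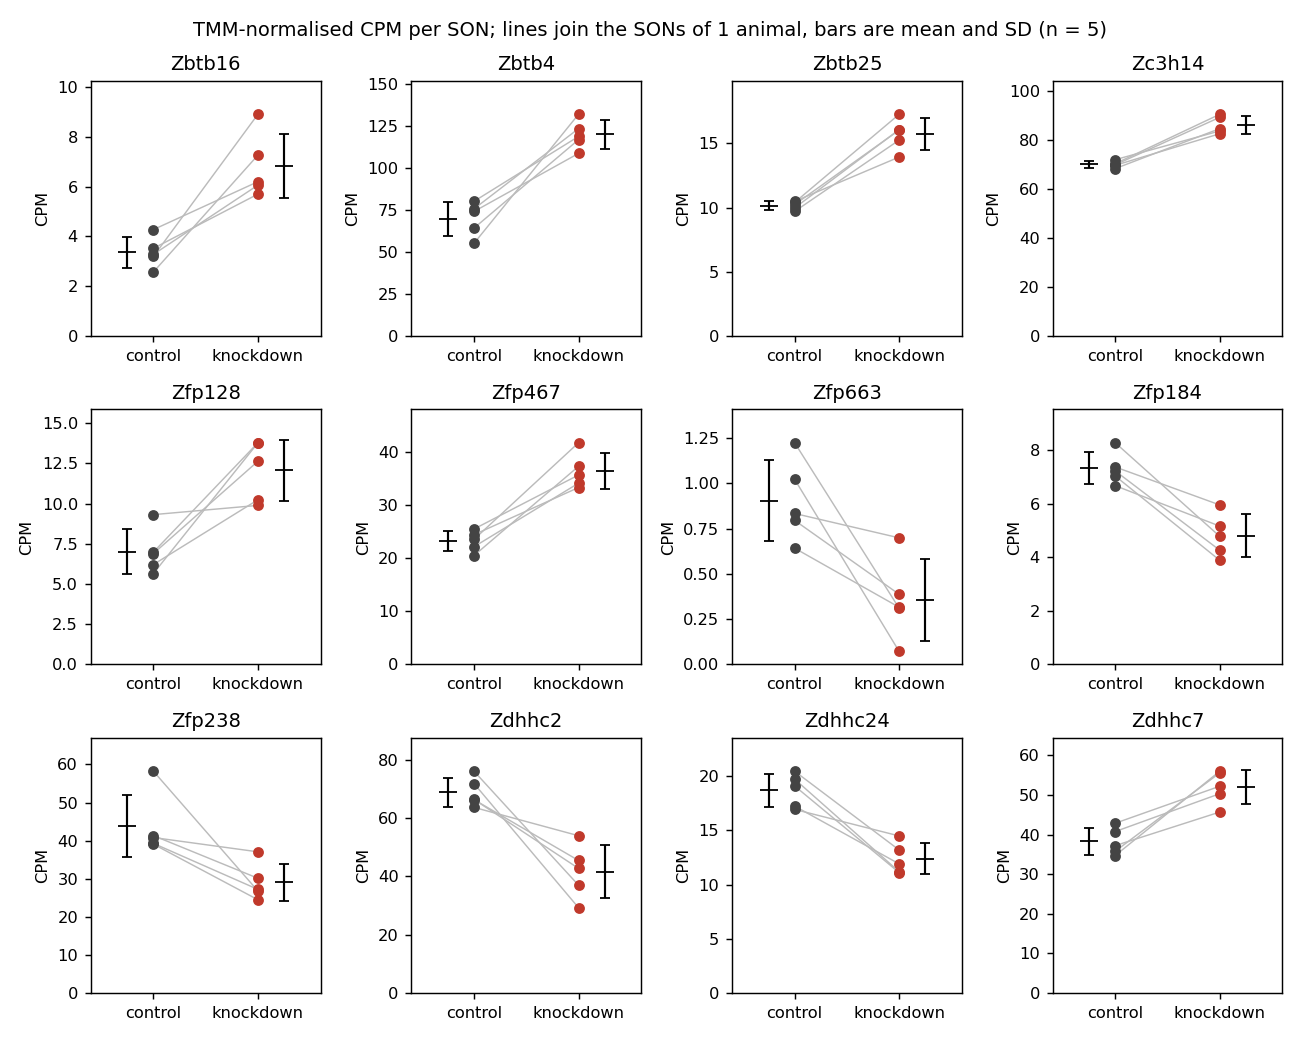
TMM-normalised CPM of 12 zinc finger protein genes on the y axis, which starts at 0, in control (grey points) and knockdown SONs (red points). Lines join both SONs of an animal, and the bars beside the points give the mean and SD of 5 SONs. The groups are apart in every panel except Zfp663, where 1 knockdown SON lies among the control SONs. The 12 genes were picked by hand from those named by rule, and named genes with overlapping groups were mostly left out. Among all 60 genes the groups did not overlap for 47.

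Zc3h14, the only CCCH gene, had the smallest SE of the 60 genes. It stood at 69.7, 68.3, 69.9, 70.3 and 72.0 CPM in control SONs 1 to 5 and at 82.6, 84.6, 89.3, 90.5 and 83.7 CPM in knockdown SONs 1 to 5. All knockdown SONs were above all control SONs, with a mean of 123% of control and a log2 fold change of 0.30 (SE 0.05). None of the 8 partners of poly(A)-tail proteins that were looked for could be named in the counts, and they were not analysed here.

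Among the Zdhhc genes 3 of 5 were lower, all past the threshold, and 2 were higher, 1 past it. Of the 1990 listed genes, chosen in the same way, 1168 were lower, 725 of them past the threshold. Nothing is therefore read from the 3 of 5. Over all genes fitted, 4.49% passed as lower and 3.36% as higher. Whether the directions of the BTB and Zdhhc genes differ was not tested, since both were chosen for differing. Zdhhc2, which palmitoylates the postsynaptic scaffold PSD-95, stood at 66.3, 66.2, 63.6, 76.0 and 71.8 CPM in control and at 42.7, 45.4, 53.9, 36.9 and 29.2 CPM in knockdown SONs 1 to 5. The groups were apart, the mean was 60.5% of control and the log2 fold change -0.72 (SE 0.14). Zdhhc24 gave 17.2, 20.4, 16.9, 19.7 and 19.1 CPM in control and 11.9, 13.2, 14.5, 11.2 and 11.1 CPM in knockdown SONs. It was likewise lower without overlap, at 66.2% of control and -0.59 (SE 0.10) on the log2 scale. Zdhhc14, with 39.6 to 43.4 CPM in control and 28.0 to 36.7 CPM in knockdown SONs, had a log2 fold change of -0.32 (SE 0.08).

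Zdhhc7, an enzyme of the Golgi apparatus, was higher, with 42.9, 34.7, 37.2, 35.8 and 40.8 CPM in control and 52.2, 56.0, 45.7, 55.6 and 50.3 CPM in knockdown SONs 1 to 5. The groups did not overlap and the log2 fold change was 0.44 (SE 0.08). Zdhhc4 was higher in every animal, with a log2 fold change of 0.47 (SE 0.13), but its ranges of 12.0 to 19.5 and 17.6 to 23.4 CPM overlapped and it did not pass. Of 12 other palmitoylation genes, 3 could be named, again because the study lists them. Golga7, the accessory subunit of a DHHC enzyme, went from 98.1 ± 6.41 to 149 ± 12.5 CPM, a log2 fold change of 0.60 (SE 0.08) without overlap. The depalmitoylating enzymes Lypla1 and Abhd17a were at 0.34 (SE 0.07) and -0.21 (SE 0.06) on the log2 scale, and Lypla1 and Golga7 passed the threshold.

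Within animals, the directions were shared, which follows largely from the choice of the genes and their sorting by the means of these SONs. Over all genes, the median log2 ratio of knockdown over control SON was -0.00024, 0.0085, -0.0047, 0.065 and -0.023 in animals 1 to 5. The 41 higher genes had a median log2 ratio of right over left SON of 0.44, 0.35, 0.28, 0.39 and 0.26 in animals 1 to 5, and 41, 41, 40, 40 and 39 of them were higher in the knockdown SON. The 19 lower genes had median log2 ratios of -0.44, -0.37, -0.25, -0.46 and -0.46, and all 19 were lower in each animal. The remaining Creb3l1 in the same animals was 35.0%, 52.2%, 28.3%, 49.7% and 58.4% of the control SON. Animal 3, with the least Creb3l1 left, had the median ratio nearest to 0 for the lower genes and, after animal 5, for the higher genes. Sim1, Pdyn and Cartpt also differed least in animal 3, with log2 ratios of -0.34, -0.69 and 0.10, against -1.19 or lower in the other animals, and their part was not tested. The knockdown SON of animal 3 was the one nearest to the controls for 18 of the 41 higher and 7 of the 19 lower genes. In 5 animals no relation with the Creb3l1 level can be tested.

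**Figure D3:**
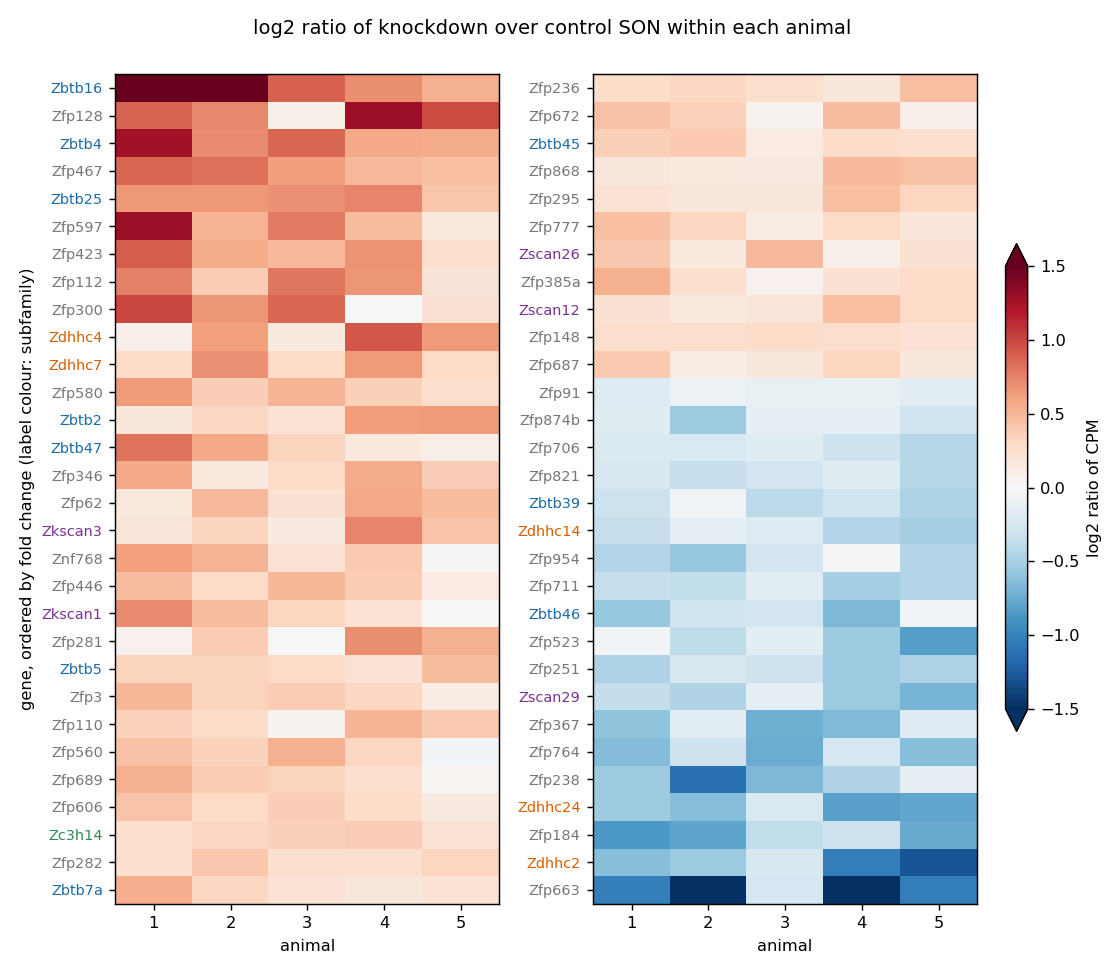
Log2 ratio of CPM, knockdown over control SON, in each of the 5 animals (columns) for the 60 zinc finger protein genes (rows), ordered by fold change from the upper left to the lower right. Red is higher and blue lower in the knockdown SON, the scale is capped at 1.5 in either direction, and label colours give the subfamily as in the plot of fold changes. The rows keep 1 colour across the animals except for 4 higher genes that are at or below 0 in 1 animal.

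Which genes passed the threshold depended on the SONs in the fit, while the signs did not. The kept signs follow largely from the choice of these genes for differing in the same SONs, so nothing is read from them. Leaving out any 1 SON gave between 9 and 34 of the 60 genes, the lowest without knockdown SON 1 and the highest without knockdown SON 3, and in each of these 10 fits the same 41 genes were higher. The number called over all genes moved alike, from 1280 with all SONs to 519 without knockdown SON 1 and 1699 without knockdown SON 3. The 9 genes Zbtb16, Zbtb4, Zbtb25, Zc3h14, Zfp467, Zfp251, Zdhhc2, Zdhhc24 and Zdhhc7 passed in all 10 fits, and 17 of the 60 passed in none. The share of all genes that passed in all 10 fits, or in none, was not computed. The 60 were chosen by p on these SONs, so nothing is read from these counts. Without control SON 1 the number was 22, without control SON 2 it was 19, and without control SONs 3 or 5 it was 10 or 11. Without knockdown SON 2 it was 13 and without knockdown SON 4 it was 14.

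**Figure D4:**
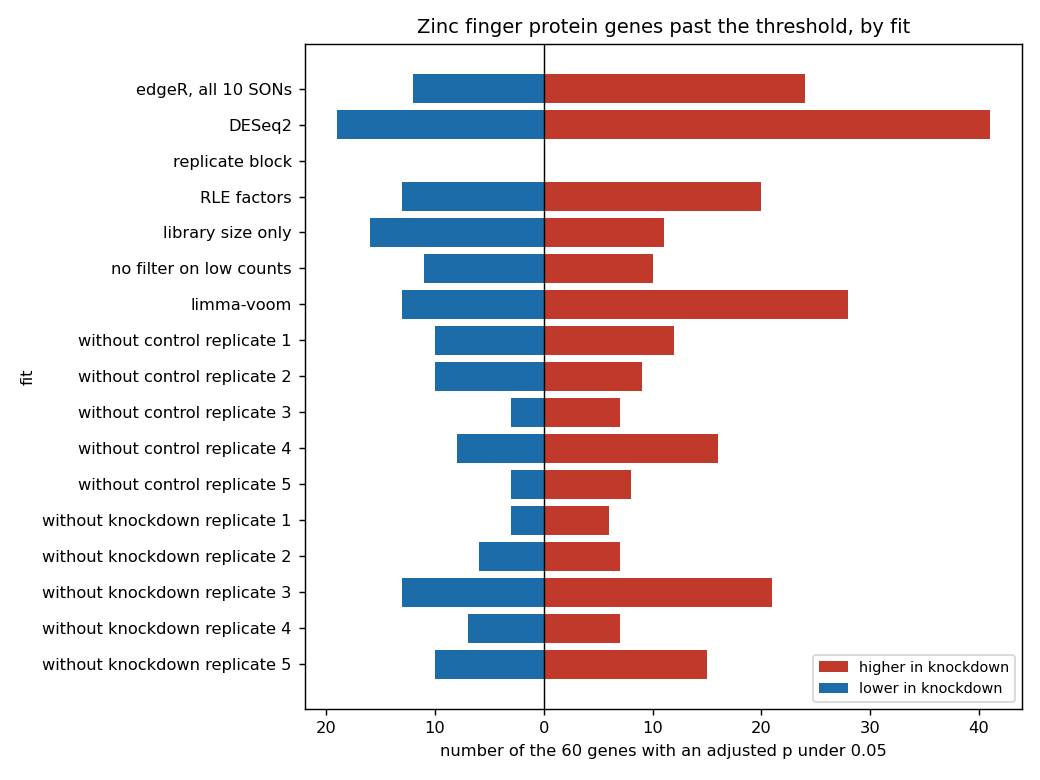
Number of the 60 zinc finger protein genes with an adjusted p under 0.05 on the x axis, higher to the right and lower to the left of 0, in each fit on the y axis. The bars are counts and have no error. The fit with the animal as a block has no bar, DESeq2 has 60, and scaling by library size alone is one of the fits in which more lower than higher genes passed.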

How the data were processed

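Raw counts of 10 SONs, 5 given control shRNA and 5 given Creb3l1 shRNA, were analysed. The authors sequenced stranded poly(A) libraries, mapped reads with STAR (build Rn6), obtained gene counts from featureCounts, and deposited these as whole numbers, not normalised. Treatment of reads that map to several places is not given in the sources used here. Each SON had 29020948 counts or more, and no replicate pair differed by less than sampling noise, with chi-square values of 29.1 or more for each degree of freedom.

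The members and lists were chosen with earlier results of these data known. The count table holds Ensembl identifiers only, so symbols were taken from the identifiers and symbols of the study's results table. Its fold changes, p-values and normalised counts were not used. The RefSeq table (GRCr8) gives no Ensembl identifiers, so the whole zinc finger family could not be named and was not analysed here.

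The groups were compared by the quasi-likelihood test of edgeR 4.0.16 (R 4.3.3) on all genes. Of 24286 genes with any count, filterByExpr (minimum count 10) kept 16286, and TMM factors lay between 0.956 and 1.07. Past the threshold means a Benjamini-Hochberg adjusted p under 0.05. The SE is the log2 fold change divided by the square root of F. For Creb3l1 an exact permutation test, two-sided, took 252 splits of the SONs. Genes were named by rule. Every Zbtb, Zscan, Zkscan, Zc3h and Zdhhc gene was named. Among Zfp and Znf genes the rule took the 6 highest and 6 lowest fold changes and the 3 highest control CPM. It also took the last zinc finger gene in the part of the list used here, Creb3l1, and partner and marker lists where measured. The 5 promoters printed, the neighbouring genes, Zfp148, Zfp295 and the genes named for a motif were chosen after their values were seen.

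Both SONs of an animal form a pair. Deviations from the group means, over 16286 genes, correlated by -0.12, 0.45, -0.44, -0.32 and -0.55 in the 5 animals. The paper names DESeq2 and states no term for the animal. The main fit here is edgeR without one. Exchanging SONs only within animals (32 exchanges) was added for Creb3l1 after the data were seen. The alternatives were the animal as a replicate block, DESeq2 1.42.0, limma-voom (limma 3.58.1), scaling by RLE factors or by library size alone, no filter, and leaving out each SON. On simulated counts with 200 genes changed 2-fold, edgeR recovered 61% and the block 40%, each with 6 unchanged genes called of 16169 genes tested. DESeq2 recovered 77%, with 46 of 16286. The simulated SONs were drawn independently, without any effect of the animal, so this cannot decide between the fits with and without the block here. A 2-fold change is 1 on the log2 scale, above the median size of 0.35 among the 60 genes.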

Additional observations from a re-analysis of the deposited data

Results flagged for a closer look

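In 6 of the 74 groups of 5 SONs examined, 1 SON stood apart from the other 4, its gap to the nearest being a large part of the group's range. Chance alone marks about 1 in 20 groups. Control SON 1 gave 3 of these values. It had the lowest Zfp597 level, 9.12 CPM against 14.1 to 15.5 CPM in the other control SONs, and the lowest Zfp385a level, 89.5 CPM against 107 to 111 CPM. It also had the highest Zbtb2 level, 13.9 CPM against 11.3 to 12.0 CPM, which is the SON through which the Zbtb2 groups overlap. For Zfp238, control SON 2 stood at 58.2 CPM while the others lay between 39.1 and 41.3 CPM. For Zfp300, control SON 4 stood at 3.998 CPM while the others lay between 2.64 and 3.03 CPM. Among knockdown SONs, replicate 3 had 114 CPM of Zfp385a, against 128 to 131 CPM.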

How the results depend on the processing

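The direction of all 60 genes was the same in every fit tried, with 41 higher and 19 lower, and the number that passed was not. The kept directions follow largely from the choice of genes by p on these SONs. Of the 60 genes, 36 passed in edgeR (1280 of all genes), 60 in DESeq2 (41 higher, 19 lower; 2188 of all genes), the tool of the study's list, 21 without a filter on low counts (10 higher, 11 lower; 950 of all genes) and, scaled by library size only, 27 (11 higher, 16 lower; 1480 of all genes). RLE factors gave 33 (1321 of all genes) and limma-voom 41 (1353 of all genes). With the animal as a replicate block 0 passed, 0 higher and 0 lower, with 9 of all 16286 genes called. An unadjusted p under 0.05 was found for 59 of the 60, which were chosen by p on these SONs, and for 18.4% of all genes. The pairing is that of both SONs of 1 animal, whose deviations correlated negatively in 4 of 5 animals. The cause of these differences was not tested. Leaving out each SON in turn gave 9 to 34 genes, 6 to 21 of them higher and 3 to 13 lower. The calls over all genes ranged from 519 without knockdown SON 1 to 1699 without knockdown SON 3. Against 36, the number was 22 without control SON 1, 19 without control SON 2, 10 without control SON 3, 11 without control SON 5, 9 without knockdown SON 1, 13 without knockdown SON 2 and 14 without knockdown SON 4. Without knockdown SON 5 the higher genes that passed were 15. Creb3l1 kept its direction, with log2 fold changes from -1.33 to -1.02 when a SON was left out, and with the block its log2 fold change was -1.21 with an adjusted p of 0.0586 in edgeR, past the threshold no longer. Exchanging SONs within animals, an alternative chosen after seeing the data, the mean log2 ratio of Creb3l1 was -1.21 with an exact permutation p of 0.0625, the smallest possible. The planned count over the whole zinc finger family was not run, because the reference gives no Ensembl identifiers. Depth limits Zfp663, with 2 to 41 counts per SON.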
